A study of Mus musculus with 4 samples.

Results

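The phospholipase A2 gene cluster of mouse chromosome 4 holds 6 genes, Pla2g2c, Pla2g2f, Pla2g2d, Pla2g5, Pla2g2a and Pla2g2e, at positions 138724792 to 138882817 of mm10 (158 kb). It was chosen by its measured values, because the longest peak of the paternal Ezh2m-/p+ list lies nearest Pla2g2c. H3K27me2, the dimethylated form of histone H3 lysine 27, was measured in PN5 zygotes, the late pronuclear stage, by ULI-NChIP-seq, in which chromatin of few cells is cut with micrococcal nuclease and precipitated without crosslinking. Eggs of C57BL/6J females were fertilized in vitro by PWK/PhJ sperm in both groups, so the parental genomes differ in sequence. Ezh2m+/p+ zygotes came from Ezh2 fl/fl mothers, and Ezh2m-/p+ zygotes came from Ezh2 fl/fl; Gdf9-Cre mothers. Gdf9-Cre deletes the floxed exon in the growing oocyte, so maternal EZH2 was lost while the sperm allele stayed intact in both groups. Each genotype had 300 pooled zygotes, 1 H3K27me2 library and 1 input library, so there was no replicate, and no value below has an error between replicates or a test between the genotypes. The authors split reads into the maternal C57BL/6 and the paternal PWK genome and listed peaks of each, which gave 4 lists. The analysed region reached 200 kb beyond the outermost cluster genes, from 138524792 to 139082817 (558 kb). It held 105 of the 56036 peaks of the 4 lists, and all peaks that the authors' annotation assigned to a cluster gene were among them, 23 in the paternal Ezh2m+/p+ list and 10 in the paternal Ezh2m-/p+ list. The lists give no read numbers, so the depth behind each peak is unknown. The study's reporting summary lists more reads for both Ezh2m+/p+ libraries, H3K27me2 and input, than for their Ezh2m-/p+ counterparts, and the part of this unequal depth in differences of peaks and folds between the genotypes was not tested.

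Secreted phospholipases A2 are small calcium-dependent enzymes that cut the middle fatty acid from membrane phospholipids, releasing fatty acids such as arachidonic acid together with lysophospholipids. The genes of this cluster are copies of a common ancestor that took on separate tissues: skin and hair follicle, lymphoid tissue, gut, testis, macrophages and fat. H3K27me2 is laid down by PRC2, whose catalytic subunit is EZH2 or EZH1, and in many cell types it covers broad stretches of chromatin outside active genes. After fertilization the sperm genome exchanges protamines for histones supplied by the egg, so its histone marks in the late zygote are largely set anew.

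The promoters shown are those of the 3 cluster genes inside the longest peak, the peak by which the cluster was chosen. These are the 250 bases before the RefSeq start (GRCm38.p6, the build of mm10), each 5′ to 3′ on the strand of its gene, with every CpG in capitals. Pla2g2c lies on the plus strand (chr4:138725075-138725324), Pla2g2f on the minus strand (chr4:138757599-138757848) and Pla2g2d on the plus strand (chr4:138775485-138775734).
Pla2g2c: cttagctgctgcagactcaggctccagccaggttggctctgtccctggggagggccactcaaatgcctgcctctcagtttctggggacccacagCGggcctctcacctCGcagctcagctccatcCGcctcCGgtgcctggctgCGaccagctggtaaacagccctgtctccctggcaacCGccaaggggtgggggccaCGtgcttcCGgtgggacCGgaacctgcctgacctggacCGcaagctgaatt
Pla2g2f: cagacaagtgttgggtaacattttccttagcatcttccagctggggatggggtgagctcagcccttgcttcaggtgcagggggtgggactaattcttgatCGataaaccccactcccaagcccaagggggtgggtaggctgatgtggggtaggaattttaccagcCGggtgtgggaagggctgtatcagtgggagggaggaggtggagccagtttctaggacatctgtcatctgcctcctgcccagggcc
Pla2g2d: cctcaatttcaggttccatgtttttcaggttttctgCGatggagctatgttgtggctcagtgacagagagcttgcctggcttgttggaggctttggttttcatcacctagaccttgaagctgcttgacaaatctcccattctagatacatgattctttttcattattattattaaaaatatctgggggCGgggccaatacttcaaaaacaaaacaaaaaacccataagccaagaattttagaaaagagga
The Pla2g2c sequence held 10 CpG, and the sequences of Pla2g2f and Pla2g2d held 2 each. All of these are sequences of the reference genome. The paternal PWK alleles, on which the peaks were listed, may differ in sequence and were not examined. The upstream bases of Pla2g2c and Pla2g2f lay in paternal peaks of both genotypes. All of the upstream bases of Pla2g2d lay between peaks in Ezh2m+/p+ zygotes and inside the longest peak in Ezh2m-/p+ zygotes. RefSeq gives 6 windows of 300 bases (250 before and 50 after a start) for 5 of the 6 genes. Across these windows the CpG number was 13 for Pla2g2c, 5 for Pla2g2f and for Pla2g2d, 4 for Pla2g2e, and 7 and 6 for the 2 starts of Pla2g5, against a median of 7 over all 32851 mouse promoter windows. The window of the Pla2g5 start at 138863469, not printed here, differed between the genotypes as that of Pla2g2d did. In both windows 0 bases lay in Ezh2m+/p+ paternal peaks and 300 in Ezh2m-/p+ paternal peaks. The letters TATAAA, searched on both strands, were in 0 of the 6 windows and in 13.6% of all windows.

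On the maternal genome no peak was listed anywhere in the region, in either genotype. This was 0 of 5744 peaks in Ezh2m+/p+ zygotes and 0 of 9606 in Ezh2m-/p+ zygotes, although chromosome 4 as a whole held 320 and 514 of them. None of the 6 genes was overlapped by a maternal peak, while 9.75% of all 21837 genes were in the Ezh2m+/p+ list and 14.1% in the Ezh2m-/p+ list. The nearest maternal peak in Ezh2m+/p+ zygotes lay 602 kb to the right, nearest the taste receptor gene Tas1r2. In Ezh2m-/p+ zygotes it lay 1931 kb to the right, nearest Mfap2. To the left, the first maternal peak was 7093 kb away in Ezh2m+/p+ zygotes and 3123 kb away in Ezh2m-/p+ zygotes. Of windows of 500 kb across the genome, 55.9% held no maternal Ezh2m+/p+ peak and 45.9% held no maternal Ezh2m-/p+ peak. Empty windows of that size are thus common in the maternal lists. The maternal gap around the region was longer, so these shares do not describe its whole length. The lists carry only peaks above the authors' limits, and how many reads could be assigned to each parent here was not tested.

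On the paternal genome most of the region was covered. Ezh2m+/p+ zygotes had 62 peaks over 76.3% of it, and Ezh2m-/p+ zygotes had 43 peaks over 88.8%. In the rest of chromosome 4 the paternal peaks covered 3.60% and 4.84%. Among 5258 windows of 500 kb, 2 reached the share of the region in each paternal list. One of these overlaps the region itself, and the other, in both lists, was on chromosome 14 from 54500001 to 55000000. The map of the region shows the cluster genes within this cover and the gaps between peaks.

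**Figure D1:**
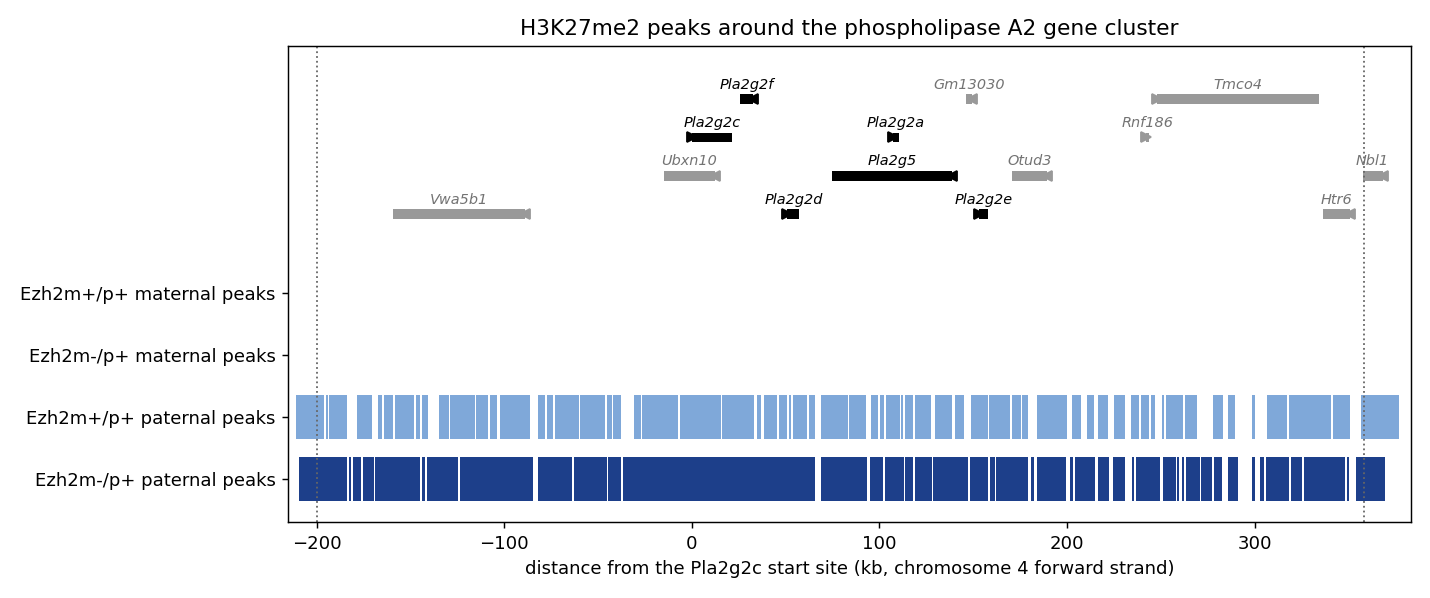
Peaks of the 4 lists (rows) and genes (black: the 6 cluster genes; grey: neighbours; arrowheads at start sites) against distance from the Pla2g2c start in kb, with dotted lines at the ends of the region. The maternal rows are empty, and the row of 62 Ezh2m+/p+ paternal peaks has more gaps than the row of 43 Ezh2m-/p+ paternal peaks.

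All 6 cluster genes were overlapped by paternal peaks in both genotypes, against 14.8% of all genes in the Ezh2m+/p+ list and 18.1% in the Ezh2m-/p+ list. The genes were chosen on the Ezh2m-/p+ paternal list, so the counts of that list are a description. More than 50% of the gene body lay in peaks for 6 of 6 genes in both lists, against 1.6% of all genes in Ezh2m+/p+ and 2.62% in Ezh2m-/p+. The 6 genes had a median covered share of 95.9% in the Ezh2m+/p+ list and 100% in the Ezh2m-/p+ list, where the median over all genes was 0. The start site lay inside a paternal peak for 4 of 6 genes in Ezh2m+/p+ (2.75% of all genes) and for 6 of 6 in Ezh2m-/p+ (4.17%). The genes without a covered start in Ezh2m+/p+ were Pla2g2d and Pla2g5.

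Pla2g2c, which is known for its expression in rodent testis, spans positions 138724792 to 138746132 on the plus strand. In Ezh2m+/p+ zygotes 96.2% of its body lay in 2 paternal peaks with folds over input of 13.0 and 11.6. In Ezh2m-/p+ zygotes 1 peak with a fold of 19.0 covered all of it. The start site and every exon were covered in both genotypes, so the genotypes differed by a gap of 801 bp inside the gene.

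Pla2g2f encodes an enzyme of the outer epidermis and lies on the minus strand from 138750533 to 138757626. Its whole body lay in a single paternal peak in both genotypes. That peak was 17199 bp long with a fold of 11.6 in Ezh2m+/p+ zygotes, and in Ezh2m-/p+ zygotes it was the longest peak.

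Pla2g2d, an enzyme of dendritic cells and lymphoid tissue, spans 138775735 to 138782046 on the plus strand. Peaks covered 76.8% of its body in Ezh2m+/p+ zygotes and 100% in Ezh2m-/p+ zygotes, the widest difference within the cluster. Its start site fell in a gap of 1001 bp of the Ezh2m+/p+ list, 336 bp from the end of the nearest peak. That neighbouring peak, 4199 bp long, had a fold of 144, one of the highest in the region, whereas the 2 peaks over the gene had folds of 19.6 and 14.5. The gap was inside the longest peak of the Ezh2m-/p+ list, so the printed promoter of Pla2g2d was outside peaks in one genotype and inside a peak in the other.

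Pla2g5 is the longest gene of the cluster, at 64239 bp on the minus strand (138799244 to 138863482), and encodes an enzyme of macrophages, heart and fat tissue. It was overlapped by 9 paternal peaks in Ezh2m+/p+ zygotes, which covered 84.3% of the body, and by 6 in Ezh2m-/p+ zygotes, which covered 91.6%. The start site lay 83 bp outside a peak in Ezh2m+/p+ zygotes and inside a peak of 18799 bp with a fold of 18.3 in Ezh2m-/p+ zygotes. RefSeq lists a second, internal start of Pla2g5, and 0 of the 300 bases of its window lay in a paternal peak of either genotype. An intronic peak of 4199 bp had a fold of 169 in Ezh2m+/p+ zygotes, and the Ezh2m-/p+ peak over the same place, 3999 bp long, had a fold of 9.60.

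Pla2g2a, which encodes the inflammatory and bactericidal enzyme of the group, lies on the plus strand from 138831857 to 138835186, inside an intron of Pla2g5. C57BL/6 mice are known to carry a disrupted copy, and the annotation lists it as a polymorphic pseudogene. C57BL/6J is the strain of the mothers, whereas the peaks here are on the PWK allele, whose state was not examined. Pla2g2a was covered completely in both genotypes, by a paternal peak of 7399 bp with a fold of 12.6 in Ezh2m+/p+ zygotes and by a paternal peak of 9999 bp with a fold of 21.9 in Ezh2m-/p+ zygotes. A peak there cannot be told apart as one of Pla2g2a or of Pla2g5.

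Pla2g2e, an enzyme of hair follicles and fat cells, spans 138877942 to 138882817 on the plus strand at the right end of the cluster. Peaks covered 95.5% of it in Ezh2m+/p+ zygotes, with a fold of 8.31, and 99.6% in Ezh2m-/p+ zygotes, with a fold of 14.9. Its start site was covered in both genotypes, and the uncovered bases were at the end of the gene. In covered share, then, no gene of the cluster was lower in Ezh2m-/p+ than in Ezh2m+/p+ zygotes.

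**Figure D2:**
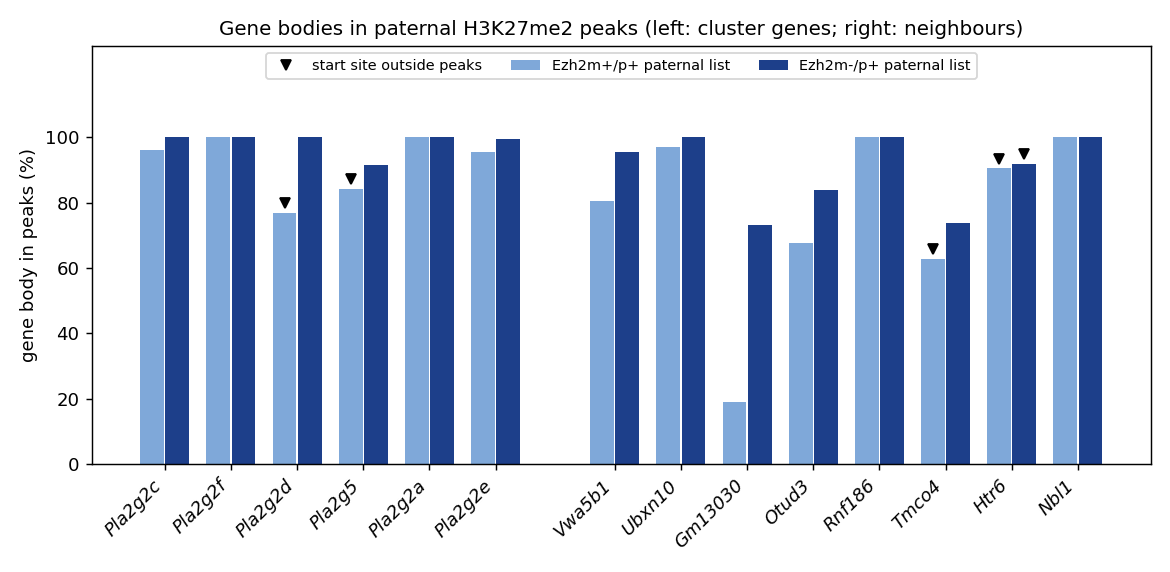
Share of each gene body in paternal peaks (%), for the 6 cluster genes (left) and the 8 neighbours (right), in the Ezh2m+/p+ list (light) and the Ezh2m-/p+ list (dark), with 1 library each and no error bars. Triangles mark start sites outside peaks: Pla2g2d, Pla2g5, Tmco4 and Htr6 in Ezh2m+/p+, and Htr6 in Ezh2m-/p+.

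The neighbours were covered in a similar way, so the cover was not particular to the phospholipase genes. Of the 8 other protein-coding genes within 200 kb, every one had paternal peaks in both genotypes. Ubxn10, which overlaps Pla2g2c on the opposite strand, was at 97.1% and 100% in Ezh2m+/p+ and Ezh2m-/p+ zygotes. Rnf186, a ubiquitin ligase of the gut lining, and Nbl1, a secreted BMP antagonist, were at 100% in both lists. Vwa5b1 was covered to 80.4% and 95.5%, the deubiquitinase gene Otud3 to 67.6% and 83.8%, and Tmco4 to 62.8% and 73.8%. The serotonin receptor gene Htr6 stood at 90.5% and 91.9%, and its start site lay outside peaks in both lists. Gm13030, between Pla2g5 and Pla2g2e, had the widest difference of the 14 genes, from 19.0% to 73.1%. None was lower in Ezh2m-/p+ zygotes.

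The longest peak ran from 138688201 to 138790199 in the paternal Ezh2m-/p+ list and was 101999 bp long, with a fold of 19.0. The next in length, 100199 bp on chromosome 14 nearest Ajuba and 97399 bp on chromosome 4 nearest Gm13032, were close behind it. It contained the whole of Pla2g2c, Pla2g2f, Pla2g2d and Ubxn10. In Ezh2m+/p+ zygotes the same stretch held 10 paternal peaks of 1399 to 21799 bp, with a median fold of 13.7 and a range of 10.2 to 144, and 85.7% of the stretch was covered. The gaps between these 10 peaks were 801 to 1801 bp. The left end of the longest peak also reached into a gap of 6601 bp of the Ezh2m+/p+ list. So the longest peak occupied ground that was mostly in peaks in both genotypes, and the rest of it was these short gaps and its left end. The authors' caller counted reads in windows of 200 bp and bridged gaps of up to 600 bp, so a few windows decide whether neighbouring peaks are listed as 1 or as several.

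The same held along the region. Of the 62 Ezh2m+/p+ paternal peaks, 62 overlapped an Ezh2m-/p+ paternal peak (100%, 95% Wilson interval 94.2 to 100%, counting error only), where the share over the whole list was 66.1%. In the other direction 39 of 43 did (90.7%, 78.4 to 96.3%), where the share over the whole list was 45.7%. With 88.8% of the region in Ezh2m-/p+ peaks, an overlap of 1 bp was nearly fixed by the cover, so these shares carry little beyond it. Under a reciprocal overlap of 50%, a partner was found for 33.9% of Ezh2m+/p+ peaks and for 48.8% in Ezh2m-/p+. The peaks of both lists shared 409953 bp, which was 96.3% of the covered bases of Ezh2m+/p+ and 82.7% of those of Ezh2m-/p+. Bases in peaks of Ezh2m-/p+ alone came to 85831 bp and bases in peaks of Ezh2m+/p+ alone to 15612 bp. Among the 43 Ezh2m-/p+ peaks, 21 overlapped 1 Ezh2m+/p+ peak, 10 overlapped 2, 5 overlapped 3, 2 overlapped 4, and the longest overlapped 10. The remaining 4, of 1399 to 5999 bp, lay where Ezh2m+/p+ zygotes had no peak, and none of these was within a cluster gene. Of the 61 gaps between Ezh2m+/p+ peaks, with a median of 1001 bp, 35 were fully covered in Ezh2m-/p+, 24 partly and 2 not at all.

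Fewer peaks therefore went with more covered bases. The number of paternal peaks in the region was 0.694 times as high in Ezh2m-/p+ as in Ezh2m+/p+ zygotes, whereas it was 1.07 times as high on chromosome 4 and 1.28 times as high in the whole list. The mean length was 12018 bp against 7341 bp, a ratio of 1.64, where chromosome 4 had 1.25 and the whole list 1.22. Both values include the peak by which the region was chosen, and are a description. Without the stretch of that peak, 42 peaks with a mean of 9875 bp in Ezh2m-/p+ stood against 52 with a mean of 7072 bp in Ezh2m+/p+, ratios of 0.808 in number and 1.40 in length. Peaks over 10 kb were 16 of the 43 in Ezh2m-/p+, where 668 of the 22823 peaks of the list were as long, and 14 of the 62 in Ezh2m+/p+, where 268 of 17863 were. The ratio of covered bases was 1.17, below the 1.33 of chromosome 4 and the 1.56 of the whole list. With 76.3% covered in Ezh2m+/p+ zygotes, the region could not have gone above a ratio of 1.31. Within the cluster itself, from Pla2g2c to Pla2g2e, 19 peaks over 83.7% in Ezh2m+/p+ stood against 8 peaks over 94.0% in Ezh2m-/p+, which the choice of the longest peak partly fixes.

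The median fold over input was 14.3 in Ezh2m+/p+ zygotes, where the whole paternal list had 36.1, and 13.8 in Ezh2m-/p+ zygotes, where the list had 15.8. Over the cluster alone the order turned, with a median of 14.5 for the 19 Ezh2m+/p+ peaks and 17.5 for the 8 of the Ezh2m-/p+ list. These 8 include the longest peak, by which the cluster was chosen, so this order is a description. Folds ranged from 5.27 to 247 in the Ezh2m+/p+ list and from 6.90 to 78.8 in the Ezh2m-/p+ list. Above a fold of 100 there were 5 peaks in Ezh2m+/p+ and 0 in Ezh2m-/p+, while the lists as a whole held 7.56% and 11.7% such peaks. The highest, 247, was a peak of 3799 bp in an intron of Vwa5b1. The highest of the Ezh2m-/p+ list, 78.8, was a peak of 1199 bp also nearest Vwa5b1. Many folds recur exactly: 44 of the 62 and 25 of the 43 values were shared by at least 10 peaks of their own list, so a fold is a coarse value here, and folds of the lists were called against separate inputs.

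**Figure D3:**
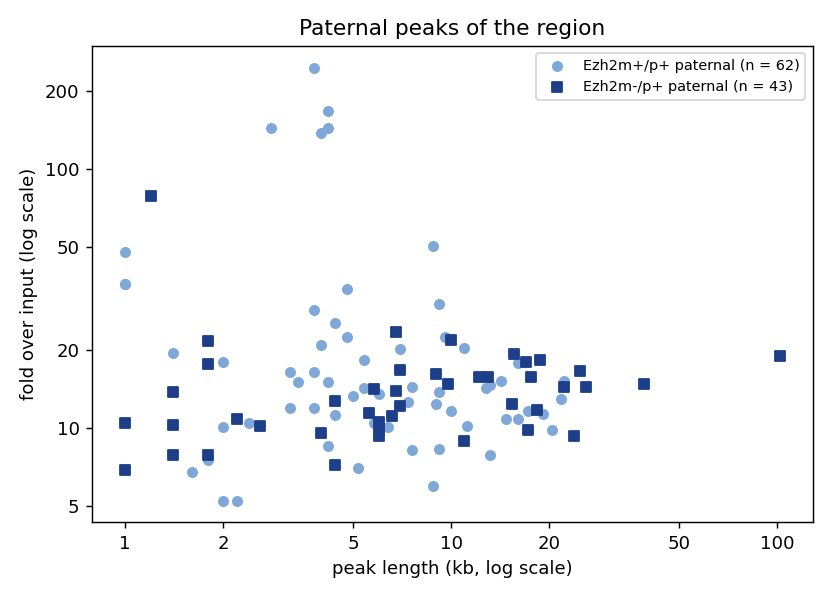
Length (kb, log scale) against fold over input (log scale) of the 62 Ezh2m+/p+ and 43 Ezh2m-/p+ paternal peaks of the region, 1 point per peak. The 5 peaks above a fold of 100 are all short Ezh2m+/p+ peaks, and the single point past 100 kb is the Ezh2m-/p+ peak over Pla2g2c, Pla2g2f and Pla2g2d.

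By the authors' annotation promoters, within 3 kb of a start site, took 23 of 62 peaks (37.1%) in Ezh2m+/p+ and 16 of 43 (37.2%) in Ezh2m-/p+, where the whole lists had 17.3% and 16.9%. Distal intergenic positions took 19 (30.6%) and 13 (30.2%), where the lists had 40.2% and 40.7%. Introns took 6 and 7 peaks, exons 4 and 4, 5′ UTRs 3 and 2, and 3′ UTRs 6 and 1. The peaks here were longer than those of the lists, and the part of length in these shares was not tested. The annotation gives each peak 1 gene, so the longest peak was assigned to Pla2g2c alone, and no Ezh2m-/p+ peak was assigned to Pla2g2d or Pla2g2f even though both lay within it.

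In the reference genome, the sequence of the region was richer in GC and CpG than its chromosome. The PWK sequence of the paternal alleles was not examined. GC content was 49.4% against 42.3% for chromosome 4, and CpG numbered 13.8 against 8.77 per kb. Repeat-masked bases made up 23.7% of the region and 34.5% of chromosome 4. Within the region they were 21.3% of the bases in peaks of both genotypes, 28.0% of those in Ezh2m-/p+ peaks alone 34.2% of those in Ezh2m+/p+ peaks alone and 33.4% of those in no peak. Bases in peaks of both genotypes thus held the fewest repeats, and the part of mappability in the gaps was not tested.

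The cluster lay near the middle of a longer paternal stretch. Windows of 100 kb with peaks in both paternal lists followed each other without a break from 135900001 to 141000000, 51 windows or 5.1 Mb. This run held 522 paternal peaks over 57.1% of its bases in Ezh2m+/p+ and 444 over 68.3% in Ezh2m-/p+, which was 48.2% and 43.3% of all covered paternal bases of chromosome 4. The maternal lists had 2 and 0 peaks there. Of the 78 genes of the run outside the cluster, 31 (39.7%) had the start site in an Ezh2m+/p+ paternal peak and 49 (62.8%) in an Ezh2m-/p+ paternal peak, and the median covered share was 47.4% and 68.0%. Peak number in the run was 0.851 times as high in Ezh2m-/p+ and covered bases 1.20 times as high. Its peaks outside the region were 460 with a mean of 5343 bp in Ezh2m+/p+ zygotes, against 401 with a mean of 7395 bp in Ezh2m-/p+ zygotes. Chromosome 4 had 4 such runs of 10 or more windows in all. The others lay at 76000001 to 77100000, 132500001 to 134600000 and 148100001 to 149200000, with a paternal cover of 12.6% to 53.1% in Ezh2m+/p+ zygotes and 29.2% to 66.7% in Ezh2m-/p+ zygotes. Maternal peaks covered none of these in the Ezh2m+/p+ list and at most 0.236% in the Ezh2m-/p+ list. The part of the assignment of reads to parents in these long paternal stretches was not tested.

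**Figure D4:**
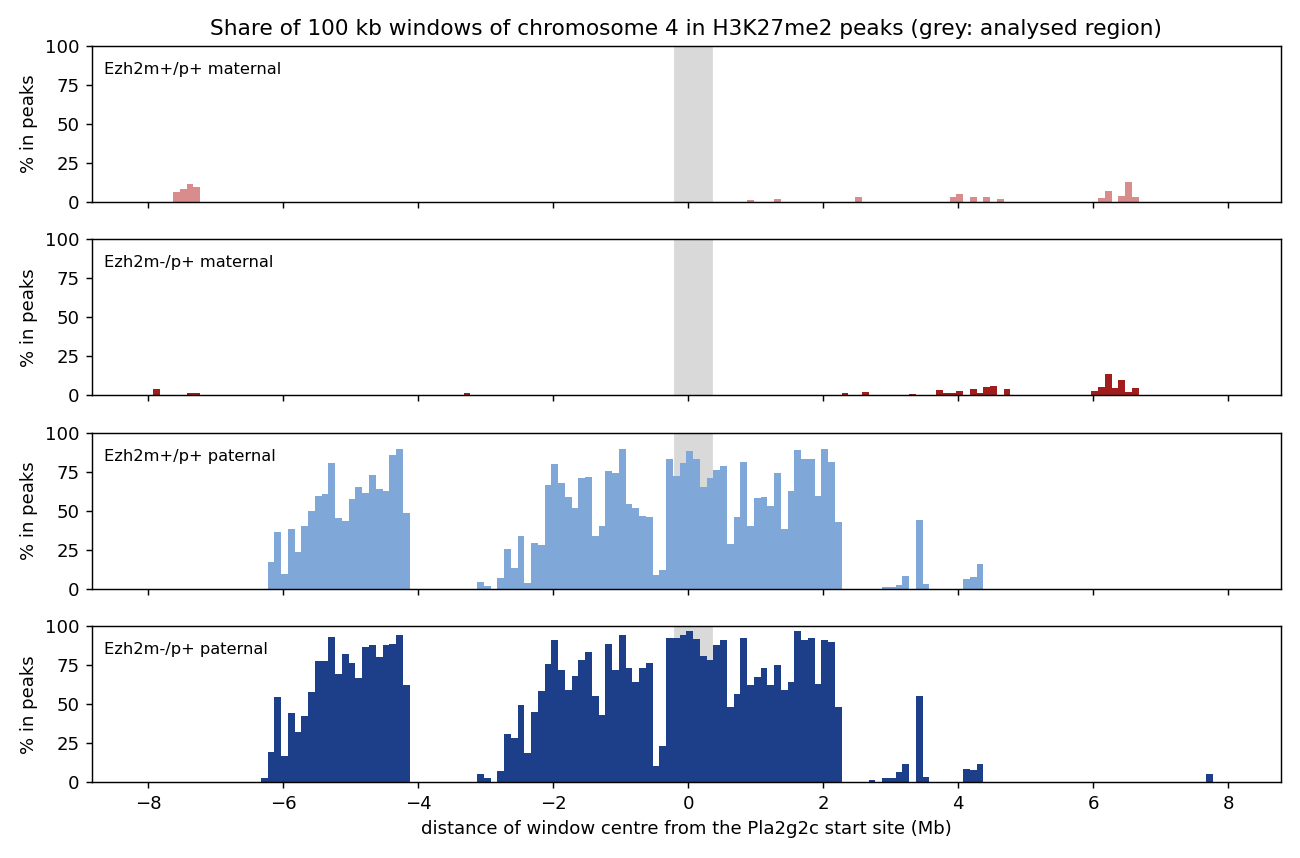
Share of each 100 kb window in peaks (%), for the 4 lists, against distance of the window from the Pla2g2c start in Mb; grey marks the region. The paternal lists form a block of 5.1 Mb around the cluster, where the maternal lists have 2 and 0 peaks, and within the plotted range a separate block lies further left.

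Among genes of chromosome 4 outside the region, those most like the cluster were found by distance. This was the distance between their covered shares in the 4 lists and the median of the 6 genes. Neighbours within the region were left out, among them Ubxn10 with 97.1% and 100% paternal cover. Padi1, a peptidylarginine deiminase gene in the same run, was 1.67 percentage points away, with 97.6% and 100% paternal cover. Zfp683 and Sh3bgrl3 were both 4.11 points away, covered completely in both paternal lists, and lay in the run from 132500001 to 134600000. They were the first by position of 10 genes outside the region at that same distance, and all 10 lay inside one of the 4 runs. All 3 had no maternal peak.

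Other genes of the pathway lie elsewhere in the genome and were read against all genes. Of 29 such genes, 3 had a maternal peak in Ezh2m+/p+ zygotes and 4 in Ezh2m-/p+ zygotes, where 9.75% and 14.1% of all genes did. For paternal peaks the numbers were 2 and 4, where 14.8% and 18.1% of all genes had one. The secreted phospholipases outside the cluster and their receptor Pla2r1, together 6 genes, had no paternal peak. Pla2r1 had maternal peaks over 7.07% and 6.92% of its body. Pla2g3 had 2 maternal peaks in Ezh2m+/p+ zygotes, over 24.5% of its body, and 0 in Ezh2m-/p+ zygotes. The reverse held for Pla2g4a and Tbxas1, the thromboxane synthase gene, which had 0 maternal peaks in Ezh2m+/p+ zygotes and 2 each in Ezh2m-/p+ zygotes, over 2.43% and 2.01%. Of 9 intracellular and other phospholipases, Pla2g4e was covered by paternal peaks to 4.56% and 14.9%, Pla2g6 to 3.32% and 7.11%, and Pla2g4b to 0 and 18.7%. Of 14 enzymes that process arachidonic acid, Alox5, the 5-lipoxygenase of leukotriene synthesis, had maternal peaks in both genotypes over 5.09% and 7.04%. Lta4h, which makes leukotriene B4, had a paternal peak in Ezh2m-/p+ zygotes alone, over 6.99%. None of these genes came near the cover of the cluster.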

How the data were processed

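H3K27me2 was measured in 2 zygote genotypes, with 1 H3K27me2 library and 1 input library each. The authors trimmed reads (Trimmomatic 0.38), mapped them with Bowtie2 (mm10), required a mapping quality over 30, removed duplicates with Picard and split reads by parent with SNPsplit. Peaks were called with SICER against input (window 200 bp, gap 600 bp, q value 1e-05), kept over 1000 bp and a fold over 5, and annotated with ChIPseeker. The shortest listed length is 999 bp, just under the stated limit. The deposited lists give each peak's position, length in bp, distance to the nearest start site and the fold, a ratio of H3K27me2 to input.

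Peaks within 200 kb of the 6 genes were taken as listed, and overlap meant at least 1 bp. Gene models were those of GENCODE vM21 (protein-coding genes and polymorphic pseudogenes, chromosomes 1 to 19 and X), whose ends matched 100% of the transcripts named in the region. Symbols were found for 11459 of 11472 gene identifiers. Shares of overlapping peaks carry 95% Wilson intervals, which cover counting of peaks only and treat neighbouring peaks of 1 library as independent. For covered shares, the interval used to compare settings counted windows of 200 bp in the same way. Genes named were the 6 members, protein-coding neighbours, 29 pathway genes and those of the longest and highest peaks. The 3 most similar genes of chromosome 4 outside the region were also named. The members and lists were chosen with earlier results of these data known. Alternatives were fold limits of 10, length limits of 2000 bp, margins of 100 and 0 kb, joined peaks, a reciprocal overlap, other ways to count genes, and scaling to chromosome 4. The deposited coverage table of the series was not used here. Overlap and cover were tested on simulated data. The tools were pandas 2.3.3 and numpy 2.4.6, with scipy 1.17.1, in Python 3.11.15, and matplotlib 3.10.9 for plots.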

Additional observations from a re-analysis of the deposited data

How the results depend on the processing

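The maternal count of 0 could not change, since each setting narrows or joins the peaks. Ezh2m-/p+ kept fewer paternal peaks and more covered bases than Ezh2m+/p+ zygotes in each setting run. The ratio of covered bases turned below 1, to 0.876, relative to bases covered on chromosome 4, since it divides by the larger ratio of the chromosome. Otherwise it was 1.17 with a length over 2000 bp, 1.14 with a fold over 10, 1.14 with a margin of 100 kb, 1.12 with a margin of 0 kb and 1.15 with joined peaks. In Ezh2m+/p+ and Ezh2m-/p+ zygotes the peak number was 41 and 23 with the margin of 100 kb, 19 and 8 with 0 kb, and 23 and 9 with peaks up to 2000 bp apart joined. The covered share was 66.0% and 75.1% with a fold over 10, 73.8% and 86.6% with a length over 2000 bp, 80.0% and 91.4% with 100 kb, 83.7% and 94.0% with 0 kb, and 83.0% and 95.1% with joined peaks. The share of peaks that overlapped the other genotype fell to 86.3% for Ezh2m+/p+ with a fold over 10, and to 33.9% and 48.8% with a reciprocal overlap of 50%, the setting that moved it most, since a long peak and its parts differ in length. It was 100% for Ezh2m-/p+ with 0 kb and with joined peaks. The median fold was 15.2 and 14.9 with a fold over 10, 14.5 and 13.9 with 100 kb, 14.5 and 17.5 with 0 kb, and 14.0 in Ezh2m-/p+ with a length over 2000 bp. Without the stretch of the longest peak, a setting chosen after seeing the data, the covered share was 74.2% and 86.4%, the ratio 1.16 and the Ezh2m-/p+ median fold 13.3. The other 60 values stayed within their interval, within 1.5 times for counts, or the same when rounded. They include all maternal values, which were 0 and could not change, so their number says little about the paternal results. Within the 1.5 times, cluster genes counted in Ezh2m+/p+ zygotes fell from 6 to 5 with a fold over 10 and to 4 by start site. In Ezh2m-/p+ zygotes they fell from 6 to 4 by the nearest gene of the authors' annotation. No paired analysis was possible because each genotype had 1 library and no result came from a test. The lists give no read numbers per peak or parental genome, which limits how far single peaks and folds can be compared between libraries of unequal depth.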

Other observations

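The longest paternal peak of the Ezh2m+/p+ list over the whole genome also lay in the 5.1 Mb run around the cluster, nearest Gm13032, from 140787601 to 140839999 (52399 bp, fold 12.1). The third longest peak of the Ezh2m-/p+ list, 97399 bp with a fold of 9.51, covered the same place, from 140787401 to 140884799. The longest maternal peaks were shorter, 20799 bp in Ezh2m+/p+ zygotes (nearest Csf2) and 17599 bp in Ezh2m-/p+ zygotes (nearest Pebp4). The other 500 kb stretch with a paternal cover as high as that of the whole 558 kb region, the window of chromosome 14 from 54500001 to 55000000, had a cover of 80.7% in the Ezh2m+/p+ list and of 88.9% in the Ezh2m-/p+ list, and it held the second longest Ezh2m-/p+ peak, nearest Ajuba.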
